A study of Rattus norvegicus with 12 samples.

Results

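INS-1 832/3 cells that received urolithin B and then islet amyloid polypeptide (IAPP) were compared with untreated cells over all genes of the deposited count table. The comparison used 6 of the 12 libraries of the study, 3 from each side, matched by replicate number, and asked which genes had not come back to the control level. INS-1 832/3 is a rat insulinoma line that makes insulin and stands in for pancreatic beta cells, and its genotype is given as WT in all libraries. The control cells had no treatment, and the combined group had 50 uM urolithin B for 12 h and then 2 uM IAPP for 24 h. The other 6 libraries are used here for values set beside the comparison. Of these, 3 had 2 uM IAPP for 24 h alone and 3 had 50 uM urolithin B for 12 h alone. The times given do not show whether the cells with urolithin B alone were harvested when the combined group was. The cells are 1 tumour line without the other cells of an islet. The labels do not say whether the control was mock treated, from which species the IAPP sequence came, or in what state of assembly it was added.

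IAPP is a peptide hormone that beta cells store and release with insulin, and the human form can assemble into amyloid that damages these cells. Urolithin B is a product that gut bacteria make from the ellagitannins of food. In stressed beta cells the transcription factor p53 can raise genes that arrest the cell cycle or promote cell death, while the factors Mafa, Nkx6-1 and Mnx1 and the glucose transporter Slc2a2 belong to the mature beta-cell state.

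The libraries held 4893146 to 5422330 counts in the control and 5224896 to 6681455 in the combined group. Replicate 1 stood apart in every group: its libraries had 22139 to 22615 genes with a count, against 19529 to 20201 in the other 8. Transcripts of the mitochondrial genome took 13%, 22.6% and 20.6% of the counts in control replicates 1, 2 and 3, and 10.8%, 31% and 26.9% in the combined ones. RNA came from whole cultures, so fewer cells of a kind and less RNA per cell cannot be told apart. The beta-cell genes Ins1 and Ins2 were abundant, with at least 49795 and 14137 counts in each of the 6 libraries. Sst and Ppy, of delta and PP cells, and Prss1 and Cpa1, 2 of 3 exocrine markers, were at 0 in all 6 libraries. A count of 0 here allows for up to 3. The other exocrine marker, Cela2a, had 6 to 15 counts in the control and 7 to 14 in the combined group. The 15 markers of other cell classes without Gcg summed to 34.5 to 69.7 CPM (counts scaled to the size of the library) in the control and to 25.1 to 82.3 CPM in the combined group. The gene Iapp had 0 counts in all 12 libraries. The annotation behind the counts is not named, so a count of 0 does not show whether a gene's RNA was absent or went uncounted.

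Of 16814 genes tested, 7 rose and 5 fell (0.0714% of genes called in either direction, 0.0416% up and 0.0297% down) at an adjusted p under 0.05 in edgeR's quasi-likelihood test with the replicate number as a block. Those that rose were Gcg, Pam, Resp18, Car8, Gucy2c and the mitochondrial transfer RNA genes Trnq and Trne. Those that fell were Plcxd3, Ambp, Cacna1a, Abca1 and LOC100360573. In the same fit IAPP alone against control called 1316 genes (7.83%; 3.78% up and 4.04% down), urolithin B alone against control called 1 gene (0.00595%), and urolithin B + IAPP against IAPP called 881 genes (5.24%; 2.51% up and 2.73% down). These comparisons share libraries with one another, so their values are set side by side and no overlap between them is given as a result.

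The 12 calls rest on matching the libraries and on which libraries enter the fit. With the block, the 6 libraries of the comparison alone gave 265 calls, and all libraries but urolithin B replicate 2 gave 186. Without the block edgeR called 0 genes, with 411 at an unadjusted p under 0.05 against 1329 with it; with the block DESeq2 called 51 and limma-voom 15. Scaling by library size alone called 52, of which 4 rose and 48 fell, with the median of all genes at -0.10. Without replicate 1 of all 4 groups 4 genes were called, 3 of them among the 12: Gcg at 1.13, Trnq at 1.03 and Plcxd3 at -1.04. The other 9 had the same sign there, with edgeR adjusted p from 0.0811 for Car8 and Ambp to 0.267 for Pam. All 12 genes had the same sign in the 3 pairs, as did 31.7% of all tested genes, and the 2 groups did not overlap in CPM for Trne, Car8, Gucy2c and Ambp, as for 7.4% of all tested genes.

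**Figure D1:**
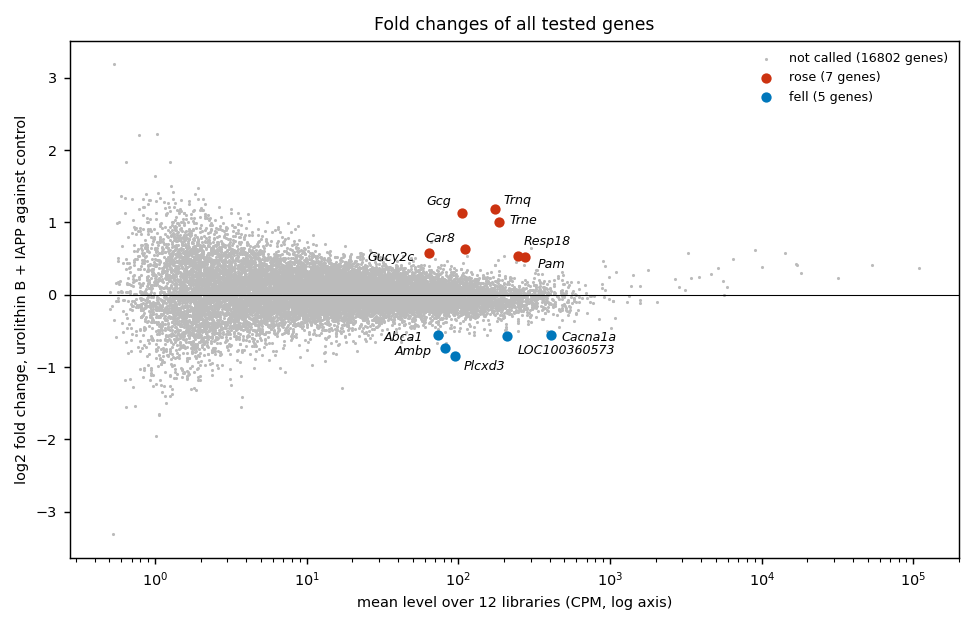
Log2 fold change in urolithin B + IAPP against control (vertical axis) against the mean level over 12 libraries in CPM (horizontal axis, log scale) for each of the 16814 tested genes. Grey points are the genes not called, and the 7 genes that rose and the 5 that fell are coloured and named.

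Gcg, which encodes the precursor of glucagon and of the glucagon-like peptides, had the smallest p. Its level was 18.5, 98.5 and 77.4 CPM in control replicates 1, 2 and 3, and 40.4, 179.8 and 202 CPM in the combined ones. Every combined library was above the control library of its own number, but the groups overlapped because both replicate 1 libraries were low. The change was 1.14 ± 0.13 on the log2 scale (SE, edgeR adjusted p = 3.65e-05), a level 2.20 times that of control with a 95% interval of 1.83 to 2.63. Gcg was also the single gene called in urolithin B alone, at 0.95 ± 0.13 (edgeR adjusted p = 0.00103), and it rose by 0.50 ± 0.13 in IAPP alone (edgeR adjusted p = 0.0139). The combined group exceeded IAPP alone by 0.63 ± 0.12 (edgeR adjusted p = 0.00200), and its difference from urolithin B alone was 0.18, with a 95% interval of -0.07 to 0.43.

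Gcg opens the set of 3 upstream sequences shown because their genes differ in how the combined value stands to the single treatments: Gcg was above control in each of them, Ambp fell in IAPP alone but had a urolithin B value near the control, and Abca1 was called in neither. Each line holds the 250 bases before the annotated start in RefSeq's GRCr8 assembly, 5′ to 3′ on the gene's strand, from chr3:67531534-67531783 (minus strand) for Gcg, chr5:81593858-81594107 (minus strand) for Ambp and chr5:72596474-72596723 (minus strand) for Abca1.
Gcg: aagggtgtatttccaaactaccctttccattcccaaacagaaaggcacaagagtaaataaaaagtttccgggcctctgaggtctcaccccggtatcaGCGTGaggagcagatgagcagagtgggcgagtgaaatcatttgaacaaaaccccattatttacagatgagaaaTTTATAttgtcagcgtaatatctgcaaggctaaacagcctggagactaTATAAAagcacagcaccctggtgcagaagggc
Ambp: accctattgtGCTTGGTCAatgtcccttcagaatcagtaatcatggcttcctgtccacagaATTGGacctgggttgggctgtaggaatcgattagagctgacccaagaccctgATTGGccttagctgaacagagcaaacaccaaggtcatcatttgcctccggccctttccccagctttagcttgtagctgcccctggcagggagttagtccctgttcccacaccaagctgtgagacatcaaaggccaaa
Abca1: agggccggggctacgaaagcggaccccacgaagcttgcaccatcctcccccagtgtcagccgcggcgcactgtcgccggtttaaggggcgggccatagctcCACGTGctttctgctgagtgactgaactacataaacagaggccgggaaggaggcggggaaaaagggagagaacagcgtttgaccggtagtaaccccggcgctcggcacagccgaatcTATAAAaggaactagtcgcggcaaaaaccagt
Capitals mark matches to 6 motifs searched on both strands: the TATA box TATAAA, the CCAAT box, the E-box CACGTG, the cyclic AMP response element TGACGTCA, the core of the xenobiotic response element GCGTG and that of the antioxidant response element TGACNNNGC. In this order they are held by 12.9%, 34%, 5.59%, 1.59%, 25.9% and 10.1% of 33469 RefSeq promoters of the same length. In Gcg the letters TATAAA begin 32 bases before the start, TTTATA, the same motif on the other strand, 80 bases before it, and GCGTG 153 bases before it. In Ambp the CCAAT box lies on the other strand, written ATTGG, at 189 and 137 bases, and TGACNNNGC is also on the other strand, at 240 bases. Abca1 holds TATAAA at 32 bases and the E-box CACGTG at 149 bases before its start. The promoter table held 7 of the 12 called genes, and a match describes letters, not binding.

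Pam and Resp18, with Gcg, belong to the making and storage of peptide hormones. Pam encodes the enzyme that amidates the end of many peptide hormones, IAPP among them. Its level was 158.8, 227 and 273.5 CPM in the control and 244.7, 314.5 and 381 CPM in the combined replicates, higher in each pair but with overlapping groups. It rose by 0.52 ± 0.10 (edgeR adjusted p = 0.0238), beside 0.43 ± 0.10 in IAPP alone (edgeR adjusted p = 0.00541). Resp18, a protein of the endoplasmic reticulum and granules of endocrine cells, rose from 150.8, 239 and 199.5 CPM to 221, 309 and 319 CPM, by 0.54 ± 0.10 (edgeR adjusted p = 0.0332). Neither was called against IAPP alone, and the intervals of that difference were -0.11 to 0.29 for Pam and -0.03 to 0.40 for Resp18.

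Among the 30 tested genes of secretory granules and exocytosis Pam was the 1 call, and the median of the list was 0.02, against 0.01 over all genes. Of the 30, 8 had an unadjusted p under 0.05, beside 1329 of all 16814 genes. Vgf, a precursor of neuroendocrine peptides, stood at 164, 229 and 204 CPM in the control and at 230.5, 277 and 301 CPM in the combined group. These libraries did not overlap, at 0.45 ± 0.10, but the adjusted p in edgeR was 0.0693. The granule proteins Scg5, a chaperone of the convertase Pcsk2, and Chgb had values of -0.33 ± 0.10 and 0.35 ± 0.11 and were not called. Ins1 stood at 7691, 14030 and 11430 CPM in the control and 11040, 19320 and 19000 CPM in the combined replicates, and was not called at 0.57 ± 0.14 (edgeR adjusted p = 0.127). Ins2, the other rat insulin gene, was at 0.24 ± 0.14, with a 95% interval of -0.04 to 0.52.

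Of the 12 genes, Car8 and Gucy2c had the smallest p between the combined treatment and IAPP alone. Car8 is a carbonic anhydrase relative without enzyme activity that binds the inositol trisphosphate receptor Itpr1, a calcium release channel. It was tightly grouped at 90.2, 91.6 and 92.8 CPM in the control, against 129.8, 143.5 and 152.9 CPM in the combined group, with no overlap. The rise was 0.63 ± 0.10 (edgeR adjusted p = 0.00376), a level 1.55 times control. In IAPP alone Car8 was at 90.05, 89.3 and 101.9 CPM, a difference from control of 0.03 ± 0.10, and in urolithin B alone at 104.7, 126 and 113 CPM, a difference of 0.32 ± 0.10 that was not called. Against IAPP alone Car8 rose by 0.60 ± 0.10 (edgeR adjusted p = 3.53e-04), and its difference from urolithin B alone had a 95% interval of 0.10 to 0.51.

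Gucy2c encodes the guanylate cyclase receptor known from the intestine, where it binds guanylin and uroguanylin. Its level was 40.9, 60.6 and 61.4 CPM in the control and 61.5, 81.8 and 99.0 CPM in the combined group; the lowest combined library was just above the highest control library. It rose by 0.57 ± 0.10 (edgeR adjusted p = 0.0213), whereas in IAPP alone, at 32.4, 41.9 and 47.3 CPM, it fell by 0.42 ± 0.11 (edgeR adjusted p = 0.0178). In urolithin B alone it stood at 66.0, 85.4 and 86.5 CPM. That is 0.56 ± 0.10 above control and not called (edgeR adjusted p = 0.0978), and the combined treatment differed from it by 0.01 with an interval of -0.19 to 0.22.

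Trnq and Trne, the mitochondrial transfer RNA genes for glutamine and glutamate, made up the rest of the genes that rose. Trnq stood at 51.3, 168.6 and 121 CPM in the control and at 136.6, 328 and 267 CPM in the combined replicates. It rose by 1.18 ± 0.14 (edgeR adjusted p = 1.22e-04), and Trne by 1.01 ± 0.17 (edgeR adjusted p = 0.00799), from 85.6, 141.5 and 127.5 CPM to 163.6, 300.1 and 256.5 CPM. In each of the 3 pairs both were higher in the combined library, while the share of counts from the mitochondrial genome was lower in pair 1 and higher in pairs 2 and 3. All 13 tested mitochondrial transfer RNAs had positive values, with a median of 0.49, and so had the 13 protein-coding genes of that genome, with a median of 0.29, and the 2 ribosomal RNAs. The part of the mitochondrial share in these values was not tested; without the transcripts of that genome the other 10 genes were called again. Both transfer RNAs are encoded on the light strand, and the strand setting of the counting is not given. Their reads can therefore not be told from RNA of the opposite strand. The libraries read near the poly(A) end, so counts at transfer RNA genes do not measure mature transfer RNA apart from other RNA of the region.

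Among the genes that fell, Plcxd3, Ambp, Cacna1a and LOC100360573 also fell in IAPP alone. Plcxd3, a protein with a phospholipase C X domain, stood at 158.2, 108 and 99.5 CPM in the control and at 107.6, 56.5 and 46.0 CPM in the combined group. Each combined library was below the control of its number, and the groups overlapped through combined replicate 1. It fell by 0.85 ± 0.12 (edgeR adjusted p = 0.00114), beside a fall by 0.83 ± 0.12 in IAPP alone (edgeR adjusted p = 5.58e-05). The difference between the combined treatment and IAPP alone was -0.02, with an interval of -0.28 to 0.24, so a difference of more than 0.28 in size lies outside it. In urolithin B alone Plcxd3 was at -0.10 ± 0.12.

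Ambp encodes the common precursor of the plasma proteins alpha-1-microglobulin and bikunin, and its upstream bases are shown with those of Gcg. Its level was 119, 110.3 and 87.8 CPM in the control and 69.0, 57.7 and 62.8 CPM in the combined group, with no overlap. It fell by 0.74 ± 0.12 (edgeR adjusted p = 0.00376), to 0.599 of control with an interval of 0.508 to 0.707. In IAPP alone, at 71.6, 46.0 and 43.2 CPM, it fell by 0.99 ± 0.12 (edgeR adjusted p = 2.92e-06), and the combined value was above IAPP alone by 0.25, with an interval of 0.00 to 0.50. In urolithin B alone it was at -0.02, with an interval of -0.25 to 0.21.

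Cacna1a, the pore subunit of the P/Q-type calcium channel, stood at 315, 558 and 584 CPM in the control and at 215, 401 and 369.7 CPM in the combined replicates. All 3 pairs had the lower value in the combined library, and it fell by 0.56 ± 0.10 (edgeR adjusted p = 0.0238), beside a fall by 0.49 ± 0.10 in IAPP alone (edgeR adjusted p = 0.00348). Of the 27 tested genes of calcium handling, Car8 rose, Cacna1a fell and 25 were not called, with a list median of -0.07. An unadjusted p under 0.05 was found for 7 of the 27. Itpr1, the receptor that Car8 binds, was at -0.38 ± 0.11 and the L-type channel subunit Cacna1c at -0.28 ± 0.12, neither of them called.

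Abca1 exports cholesterol from the cell. It stood at 97.5, 69.5 and 83.5 CPM in the control and at 71.3, 51.8 and 47.5 CPM in the combined group, lower in each pair, with groups that overlapped. It fell by 0.56 ± 0.11 (edgeR adjusted p = 0.0332). Neither single treatment called it, at -0.15 ± 0.11 in IAPP alone and -0.11 ± 0.11 in urolithin B alone, while the combined treatment was below IAPP alone by a called difference of -0.40 ± 0.11 (edgeR adjusted p = 0.0279). LOC100360573 is a placeholder name without annotation in the sources used here, and it is given because it completes the 12, a choice made after its values were seen. It stood at 337, 262 and 212 CPM in the control and at 221.5, 163.7 and 158.2 CPM in the combined group and fell by 0.57 ± 0.10 (edgeR adjusted p = 0.0117). In IAPP alone, at 187.5, 124 and 119.7 CPM, it fell by 0.91 ± 0.10 (edgeR adjusted p = 8.29e-07), and the combined group was above IAPP alone by 0.34 ± 0.10 (edgeR adjusted p = 0.0439).

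**Figure D2:**
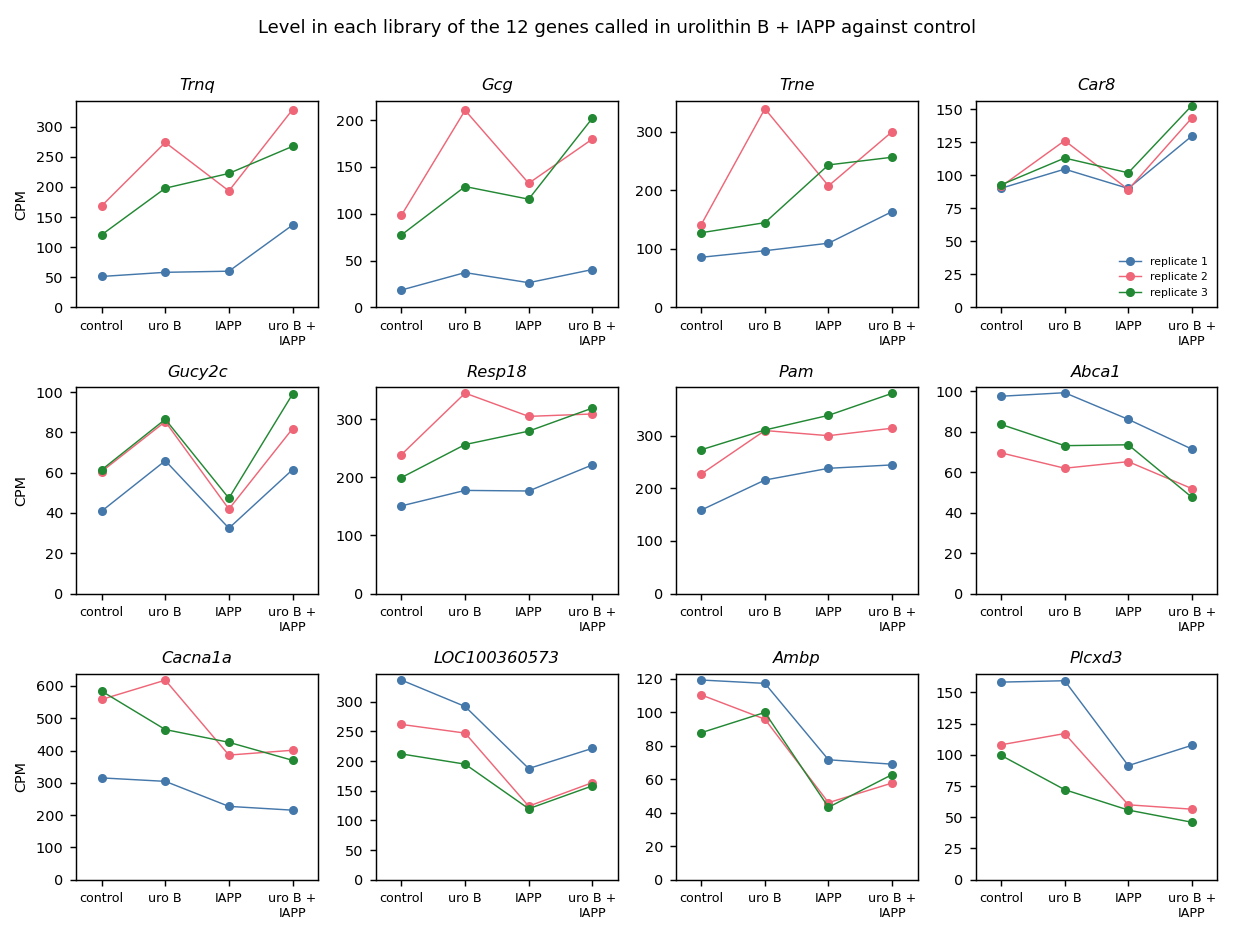
Level in CPM (vertical axes from 0) of the 12 called genes in each of the 12 libraries, by treatment (horizontal axis; uro B is urolithin B), with 1 point per library and lines joining libraries of the same replicate number. Gcg and Trnq are above the control of the same number in all 3 combined libraries although replicate 1 is low throughout, while Plcxd3 and Ambp are low in both groups given IAPP.

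The p53 targets, the list with the highest median under IAPP alone, had a lower but still positive median in the combined group. IAPP alone called 24 of the 37 tested members, all up, with a median of 1.24. The combined treatment against control called 0 of them in edgeR, with 9 at an unadjusted p under 0.05, and had a median of 0.22 with 25 positive values. Over all 16814 genes the median was 0.01, 52.7% of values were positive and 1329 genes had an unadjusted p under 0.05, which is the background for the counts of each list. Against IAPP alone, 25 of the 37 fell in the combined group. For 31 of the 37 the 95% interval against control lay within 2-fold.

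Cdkn1a, the cyclin-dependent kinase inhibitor p21, stood at 17.8, 20.3 and 15.4 CPM in the control, at 174, 138 and 150.8 CPM in IAPP alone and at 25.3, 18.5 and 22.7 CPM in the combined group. The control and combined libraries overlapped, and every library given IAPP alone was far above both. Its difference from control was 3.11 ± 0.13 in IAPP alone (edgeR adjusted p = 2.15e-14) and 0.32 ± 0.15 in the combined group, with an interval of 0.01 to 0.63 (edgeR adjusted p = 0.622). Mdm2, the ubiquitin ligase that removes p53, was at 55.9, 48.8 and 49.0 CPM in the control and 60.2, 62.3 and 62.2 CPM in the combined group, 0.27 ± 0.12 apart, beside 1.83 ± 0.12 for IAPP alone. Those libraries did not overlap, but the difference was not called (edgeR adjusted p = 0.606). Cyclin G1, from Ccng1, was likewise at 0.27 ± 0.12 beside 2.24 ± 0.12.

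For other p53 targets the interval left room for a larger remainder. Plk2, a polo-like kinase, was at 2.01, 2.32 and 1.05 CPM in the control and 3.18, 2.94 and 2.57 CPM in the combined group, at 0.68 ± 0.36 with an interval of -0.06 to 1.42. Phlda3, a repressor of Akt, was at 0.65 ± 0.35 with an interval of -0.08 to 1.37. In IAPP alone these genes stood at 3.02 ± 0.30 and 2.84 ± 0.30. Pidd1, with 3 to 13 counts in the control and 12 to 21 in the combined group, was higher in each pair. It had the highest value of the list, 1.19 ± 0.45 with an interval of 0.27 to 2.11, and was not called (edgeR adjusted p = 0.458). In IAPP alone Pidd1 was at 2.09 ± 0.42. Btg2 was at 0.27 ± 0.12 with an interval of 0.03 to 0.51, not called, beside 1.61 ± 0.11 in IAPP alone. Bbc3, which encodes the death-promoting protein PUMA, was at 24.3, 23.0 and 21.3 CPM in the control and 30.7, 29.8 and 28.4 CPM in the combined group. It was higher in each combined library than in any control, at 0.37 ± 0.15, and not called (edgeR adjusted p = 0.509). The long noncoding RNA Pvt1 was on the other side, at -0.50 ± 0.12 in the combined group beside 1.25 ± 0.11 in IAPP alone (edgeR adjusted p = 0.127 and 4.33e-08).

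**Figure D3:**
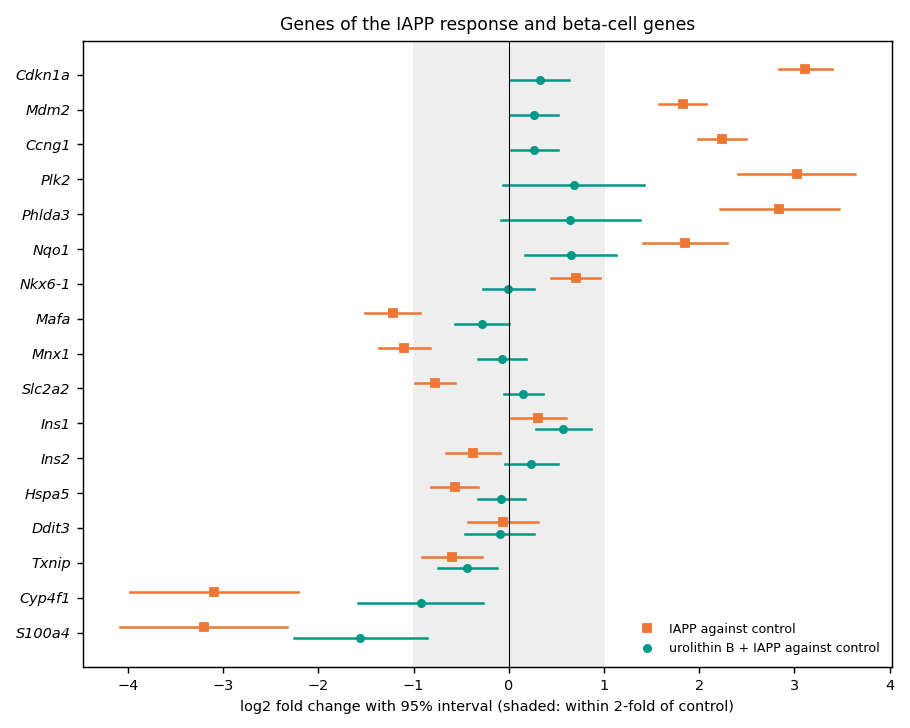
Log2 fold change against control with its 95% interval (horizontal axis) for 17 named genes (vertical axis), with orange squares for IAPP alone and green circles for urolithin B + IAPP; the shaded band lies within 2-fold of control. The green points of Cdkn1a, Mdm2 and Ccng1 are at 0.32, 0.27 and 0.27, and those of S100a4 and Cyp4f1 are the furthest below 0, at -1.56 and -0.92.

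Genes of the mature beta cell were centred on the control level as a list, with Ins1 the highest at 0.57 ± 0.14. The combined treatment called 0 of 30 tested members in edgeR, with 6 at an unadjusted p under 0.05 and a median of 0.00, and 29 of the 30 intervals lay within 2-fold. IAPP alone raised 1 and lowered 6 of the 30. Mafa, an activator of insulin genes, was at 307, 375.5 and 377 CPM in the control, 185.9, 142 and 128 CPM in IAPP alone and 275, 313.5 and 284 CPM in the combined group. Against control it was at -1.22 ± 0.14 in IAPP alone (edgeR adjusted p = 1.96e-06) and at -0.28 ± 0.14 in the combined group, with an interval of -0.56 to 0.00. All 3 pairs were negative, and the combined group was above IAPP alone by 0.94 ± 0.14 (edgeR adjusted p = 1.06e-04).

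The other factors had still smaller values. Mnx1 was at -0.07 ± 0.12 with an interval of -0.32 to 0.18, beside -1.10 ± 0.13 in IAPP alone. Nkx6-1, which rose by 0.70 ± 0.13 in IAPP alone (edgeR adjusted p = 5.95e-04), stood at 28.1, 25.7 and 28.4 CPM in the control and 28.1, 24.8 and 29.1 CPM in the combined group, and its interval ran from -0.27 to 0.26. Slc2a2, the glucose transporter GLUT2, was at 463, 554.6 and 543.9 CPM in the control and 496.5, 628 and 614.5 CPM in the combined group. Its interval of -0.05 to 0.36 lay mostly above 0, where IAPP alone had lowered it by a difference of -0.78 ± 0.10 (edgeR adjusted p = 1.13e-05).

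S100a4 and Cyp4f1, both lowered by IAPP alone, lay between that group and the control in the combined group and were not called against control. S100a4, a calcium-binding protein, was at 7.26, 7.55 and 5.89 CPM in the control (28 to 47 counts), at 0.48, 0.90 and 0.91 CPM in IAPP alone (3 or 4 counts) and at 2.86, 2.10 and 2.05 CPM in the combined group (10 to 18 counts). The 3 groups did not overlap. It was at -1.56 ± 0.34 in the combined group, with an interval of -2.25 to -0.86 (edgeR adjusted p = 0.0693), beside -3.21 ± 0.43 in IAPP alone. Cyp4f1, a fatty acid hydroxylase, was at 6.33, 5.81 and 4.84 CPM in the control, 0.80, 0.45 and 0.68 CPM in IAPP alone and 3.81, 1.68 and 3.42 CPM in the combined group. Its value was -0.92 ± 0.32 with an interval of -1.58 to -0.27, beside -3.10 ± 0.43 in IAPP alone (edgeR adjusted p = 0.392 and 2.50e-05).

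Txnip, which binds thioredoxin and responds to glucose, was lowered by IAPP alone and not called in the combined group. It stood at 80.5, 42.4 and 61.7 CPM in the control, 55.5, 30.2 and 36.6 CPM in IAPP alone and 59.3, 38.2 and 38.3 CPM in the combined group, lower in each pair, with groups that overlapped. Against control it fell in IAPP alone, at -0.60 ± 0.15 (edgeR adjusted p = 0.0127), and was at -0.43 ± 0.15 in the combined group, with an interval of -0.74 to -0.13 (edgeR adjusted p = 0.382).

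Nqo1, a quinone reductase that NRF2 and the aryl hydrocarbon receptor can induce, was intermediate in the same way but upwards. It stood at 5.10, 4.26 and 5.05 CPM in the control, 19.4, 16.2 and 16.4 CPM in IAPP alone and 8.10, 7.13 and 7.35 CPM in the combined group. No 2 of these groups overlapped, yet the difference from control, 0.65 ± 0.23 with an interval of 0.17 to 1.13, was not called (edgeR adjusted p = 0.413). Among the 8 tested genes of the aryl hydrocarbon receptor list and the 22 of the NRF2 list 0 were called in the combined group by edgeR, with 1 and 4 at an unadjusted p under 0.05, and the medians were 0.06 and 0.05. IAPP alone raised 4 of the 8, and raised 4 and lowered 1 of the 22. Cyp1a1, the best known target of the receptor, had 0 to 7 counts per library and was not tested.

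Chaperones of the endoplasmic reticulum had mostly positive values. Of 23 tested chaperones and folding enzymes 0 were called by edgeR, with 8 at an unadjusted p under 0.05, and 21 had positive values, beside 52.7% of all genes, with a median of 0.16; in IAPP alone 5 fell and the median was -0.20. Sdf2l1, a cofactor of the chaperone Hspa5, stood at 34.1, 80.7 and 76.2 CPM in the control and 52.8, 107.9 and 104.1 CPM in the combined replicates, at 0.49 ± 0.10 (edgeR adjusted p = 0.0642). It was higher in each pair, and in IAPP alone it fell, at -0.42 ± 0.11 (edgeR adjusted p = 0.0147). Hspa5 itself was at -0.08 ± 0.12 and Ddit3, which encodes the stress factor CHOP, at -0.10 ± 0.18. Among the 28 genes of the integrated stress response and the 16 of the cytosolic heat shock response 0 were called, with 2 and 3 at an unadjusted p under 0.05, and the medians were -0.07 and -0.13 beside -0.30 and -0.33 in IAPP alone.

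The lists of ribosomal proteins, ribosome biogenesis, glycolysis and the hypoxia response had small negative medians. Of the 78 tested cytosolic ribosomal proteins 0 were called by edgeR, with 15 at an unadjusted p under 0.05, and 13 were positive, with a median of -0.11; IAPP alone lowered 50 with a median of -0.42. Reads of these genes are uncertain because near-identical copies exist. Rps10, the member with the smallest p, was at 215.9, 204 and 183 CPM in the control and 169.8, 137.7 and 126 CPM in the combined group, with no overlap (-0.48 ± 0.11, edgeR adjusted p = 0.0909). Among 22 genes of ribosome biogenesis 1 was positive and the median was -0.17, with 0 called and 4 at an unadjusted p under 0.05. Glycolysis and hypoxia genes had medians of -0.14 each, with 3 of 16 and 3 of 14 members positive and 0 called. At an unadjusted p under 0.05 were 3 of the 16 and 6 of the 14.

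Within the hypoxia list P4ha1, a subunit of collagen prolyl hydroxylase, had the smallest p of the list members that were not called. It stood at 102.3, 103.4 and 84.6 CPM in the control and 70.7, 69.0 and 62.8 CPM in the combined group, apart from each other at -0.52 ± 0.10 (edgeR adjusted p = 0.0530). IAPP alone lowered it, at -0.41 ± 0.11 (edgeR adjusted p = 0.0126). The lowest value of the hypoxia list was that of Bhlhe40, at -1.08 ± 0.28 without overlap and not called (edgeR adjusted p = 0.164). The lists of cholesterol synthesis and uptake (23 tested genes) and of nuclear respiratory chain genes (57) had 0 calls each and medians of -0.02 and 0.06, beside -0.41 and -0.18 in IAPP alone, which lowered 11 and 3 of them. Each list had 3 members at an unadjusted p under 0.05 in the combined group.

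S phase genes also had mostly positive values. Of 28 tested, 22 were positive, beside 52.7% of all genes, with a median of 0.22, 0 were called by edgeR and 10 had an unadjusted p under 0.05. Pcna, the sliding clamp of DNA replication, was at 150.3, 175 and 159 CPM in the control and 207, 226 and 245 CPM in the combined group, with no overlap and at 0.49 ± 0.11 (edgeR adjusted p = 0.0909). In IAPP alone it was at 0.12 ± 0.11, and the combined group was above IAPP alone by a called 0.37 ± 0.11 (edgeR adjusted p = 0.0492). The 25 genes of G2 and mitosis had a median of -0.05, with 0 called and 0 at an unadjusted p under 0.05, while IAPP alone raised 5 of them.

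The remaining stress and clearance lists had 0 calls in edgeR. Medians were 0.24 for 16 genes of interferon and antigen processing, 0.22 for 13 of NF-kB, 0.04 for 29 of autophagy and the lysosome, 0.05 for 14 of amyloid handling and -0.07 for 33 of the proteasome, with 3, 4, 5, 3 and 0 members at an unadjusted p under 0.05. B2m, the light chain of class I antigen presentation, was at 60.9, 70.3 and 74.7 CPM in the control and 81.0, 93.6 and 99.2 CPM in the combined group. Its groups did not overlap, at 0.41 ± 0.10 (edgeR adjusted p = 0.127).

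**Figure D4:**
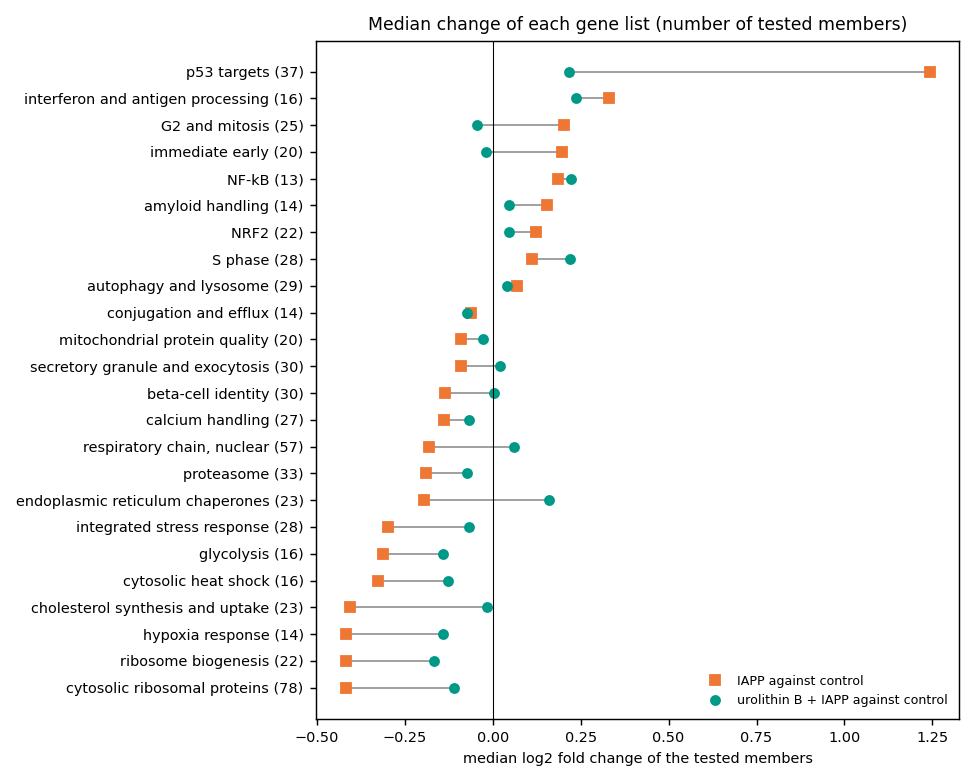
Median log2 fold change against control (horizontal axis) of the tested members of each larger gene list (vertical axis, number of tested members in brackets). Orange squares are IAPP alone and green circles urolithin B + IAPP, and lists of 9 or fewer tested members are left out. The p53 targets go from 1.24 to 0.22 and the ribosomal proteins from -0.42 to -0.11; the medians of all tested genes are 0.04 and 0.01.

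The intervals of the blocked fit say how large an undetected difference could be. For 12879 genes (76.6% of those tested) the 95% interval of the combined treatment against control lay within 2-fold, and for 8671 (51.6%) within 1.5-fold. For 0 genes did it lie wholly beyond 2-fold, where IAPP alone had 63 such genes. A fit without the block had 10545 genes within 2-fold, so these counts depend on the matching of libraries. Precision followed the level: the median width to either side was 0.21 above 100 CPM, 0.26 from 20 to 100 CPM, 0.45 from 5 to 20 CPM, 0.91 from 1 to 5 CPM and 1.49 under 1 CPM. The share within 2-fold was accordingly 99.8% above 20 CPM, 93.6% from 5 to 20 CPM, 26.3% from 1 to 5 CPM and 0% under 1 CPM, so for most genes under 5 CPM a return to within 2-fold of control was not measurable at this depth.

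A fit of the 6 libraries of the comparison alone, with the block, called more genes. It found 265 of 14404 tested (1.84%), of which 104 rose (0.722%) and 161 fell (1.12%), and it included all 12. The calls were small, with a median size of 0.45 on the log2 scale, and 8 exceeded 1. Its common coefficient of biological variation was 0.0808, against 0.104 with all 12 libraries, and leaving urolithin B replicate 2 out of the larger fit brought it to 0.0813 and the calls to 186, all of them among the 265. That library differed from urolithin B replicate 3 by a chi-square of 17.6 per degree of freedom over genes, where replicates 2 and 3 of the other groups gave 3.71 to 5.27. Whether the smaller spread of the 6 libraries or the larger one is right for them was not tested.

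Several list members passed in the 6-library fit. S100a4 and Txnip fell there, at -1.54 ± 0.32 and -0.44 ± 0.11 (edgeR adjusted p = 0.00120 and 0.0133), and Vgf, Chgb, Scg3 and Pam of the granule list rose while Scg5 fell. Ins1 rose by 0.57 ± 0.14 (edgeR adjusted p = 0.0132). The chaperones Sdf2l1, Dnajb11 and Hyou1 and the S phase genes Pcna, Ccne1 and Mcm3 rose, and 6 of the 78 ribosomal proteins and 4 of the 14 hypoxia genes fell. Of the p53 targets Pvt1 alone was called among 36 tested, at -0.49 ± 0.10 (edgeR adjusted p = 0.00138), and of the beta-cell identity list Ins1 alone among 29.

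**Figure D5:**
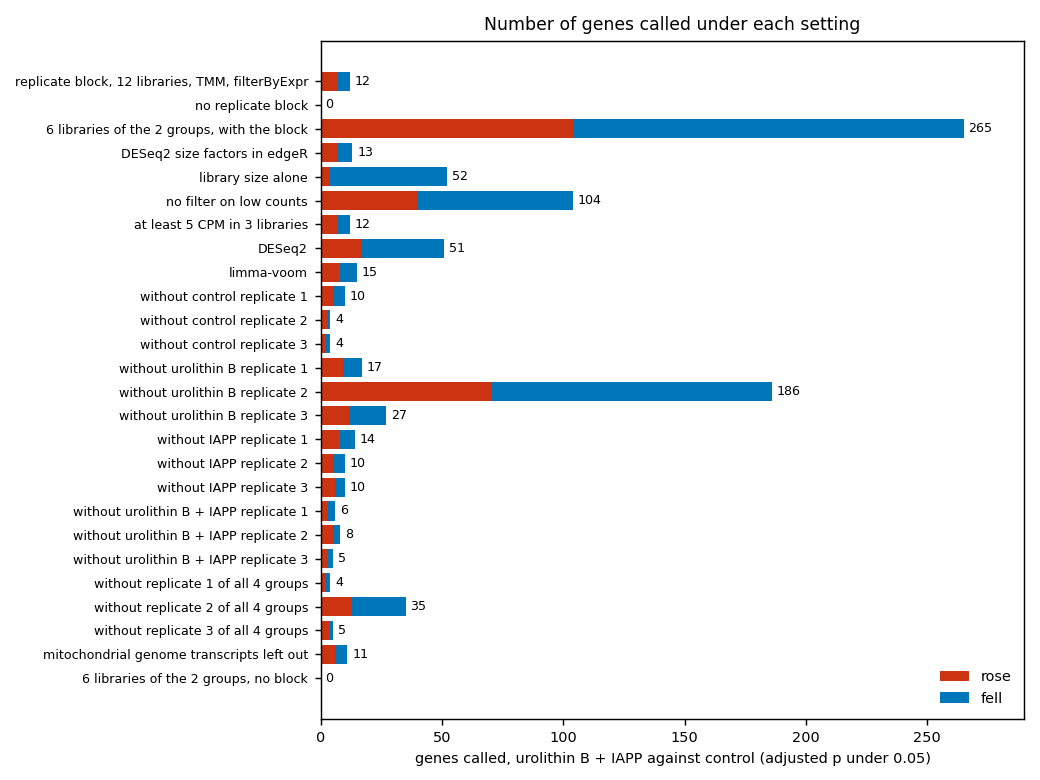
Number of genes called in urolithin B + IAPP against control at an adjusted p under 0.05 (horizontal axis, from 0) under each setting (vertical axis), with red for genes that rose and blue for genes that fell. The count is 12 in the topmost bar, 0 in both fits without the block, 265 in the 6 libraries with the block and 186 without urolithin B replicate 2.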

How the data were processed

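RNA of 12 INS-1 832/3 libraries, 3 for each of 4 treatments, was isolated with a High Pure kit and made into QuantSeq 3prime FWD libraries, which read near the poly(A) end, per the labels' protocols. The authors deposited 1 table of whole-number counts per gene, not normalized, which the series text says was corrected after release. FastQC, Bowtie2 and SAMtools were used per the submitters' processing notes, with no version named; the counter, its strand setting, the annotation and the genome build are not named by the sources used here. The labels call the replicates biological without saying whether each was its own culture, so the p-values cover the spread of these libraries alone, which may be technical. Library totals ran from 4828003 to 6681455 counts; intervals rest on 3 libraries per group.

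Testing used the quasi-likelihood method of edgeR 4.0.16 (R 4.3.3; limma 3.58.1), with TMM scaling, filterByExpr on the group, all 12 libraries in 1 fit, the replicate number as a block and two-sided Benjamini-Hochberg adjustment at 0.05 over 16814 genes. A gene was called below that threshold. Values are log2 fold changes ± SE from this fit unless CPM is named; CPM uses TMM-scaled library sizes, and n = 3 per group. A gene's 95% interval is that of its log2 fold change. The block follows from the matching by number. Deviations from the group means correlated in each of the 18 same-number pairs (r from 0.444 to 0.888), but from -0.0581 to 0.0213 without replicate 1, so replicate 1 carries the pairing. No 2 libraries of a group agreed within counting noise (chi-square per degree of freedom of 3.71 or more).

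The comparison, the gene lists and the rule for named genes were chosen with earlier results of these data known. Named were 19 fixed genes, called genes of at least 5 CPM with the same sign in all pairs, placeholder names skipped, and up to 4 members with the smallest p of each list described. Alternatives were no block, the 6 libraries alone, other scalings and filters, DESeq2 1.42.0, limma-voom, and leaving out each library or replicate number; leaving out mitochondrial transcripts, and the 6 libraries without the block, were added after seeing the data. The fit was also run on simulated counts built from replicate means and from the spread of the blocked fit. That run therefore cannot decide whether the block or the spread is right. Of 31368 gene names, 20819 were found in RefSeq's GRCr8 table, used for names and promoters.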

Additional observations from a re-analysis of the deposited data

How the results depend on the processing

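The sign of all 12 called genes stayed the same under every alternative in which they were tested, while the number of calls did not. Against 12 calls, edgeR gave 0 without the block, 0 in the 6 libraries without the block, 265 in the 6 libraries with it, 52 with scaling by library size alone and 104 without a filter on low counts, and DESeq2 gave 51. Scaling by library size moved the median of all genes to -0.10 and the split to 4 rises and 48 falls. Leaving out 1 library or 1 replicate number gave 4 to 186 calls: 4 without control replicate 2 or 3, 5 and 6 without combined replicates 3 and 1, 8 without combined replicate 2, 27 without urolithin B replicate 3, 186 without urolithin B replicate 2, and 4, 35 and 5 without replicates 1, 2 and 3 of all 4 groups. In the 12 fits without 1 library, Gcg, Trnq and Plcxd3 were called in 12, Ambp in 10, Car8 in 9 and Trne in 8. Gucy2c, Cacna1a and LOC100360573 were called in 6 of those fits, Resp18 and Pam in 5 and Abca1 in 4. Without replicate 3 of all 4 groups 4 of the 12 genes were called, and Plcxd3 was not among them. IAPP alone against control, with 1316 calls, had 142 without the block, 629 to 2114 without 1 library and 468 to 954 without 1 replicate number (775 without number 1). The number of genes within 2-fold stayed within 1.5 times its value under every alternative. Values near 0 changed sign when libraries were left out. Without 1 library Nkx6-1 ran from -0.069 to 0.055, Ddit3 from -0.33 to 0.17, Mnx1 from -0.23 to 0.028 and Hspa5 from -0.19 to 0.0011. Without 1 replicate number Nkx6-1 reached 0.014, Ddit3 0.091 and Mnx1 0.0027. The cause of these differences was not tested.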

Other observations

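In the fit of the 6 libraries alone, the 10 genes with the smallest p other than the 12, placeholder names skipped, were looked at after their values were seen. Of the 10, 4 rose and 6 fell. Stc1, the glycoprotein hormone stanniocalcin-1, stood at 108.9, 276.6 and 272 CPM in the control and at 217.5, 367.6 and 419.7 CPM in the combined replicates, and rose by 0.67 ± 0.09 (edgeR adjusted p = 4.50e-08). Gpam, which starts glycerolipid synthesis at the mitochondrion, rose without overlap from 39.9, 44.1 and 57.0 CPM to 69.8, 96.5 and 68.2 CPM, by 0.73 ± 0.11 (edgeR adjusted p = 1.47e-06). Camk4, a kinase that calcium and calmodulin activate, and Erlec1, a lectin of the endoplasmic reticulum, rose by 0.53 ± 0.09 and 0.54 ± 0.09. Pkm, which encodes pyruvate kinase, fell without overlap from 203, 204 and 182 CPM to 133, 139.5 and 128.6 CPM. Arl8a, a small GTPase of lysosomes, and Neurod2, a transcription factor of neurons and endocrine cells, also fell without overlap, at -0.57 ± 0.09 and -0.66 ± 0.11. Plekhh1 and Tesk2 fell without overlap as well, at -0.66 ± 0.10 and -0.53 ± 0.09, and Cnnm1 fell with overlap, at -0.67 ± 0.10. None of these was called in the fit of all 12 libraries.

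Further members of lists passed in the 6 libraries alone. The lysosomal proteases Ctsb and Ctsl rose by 0.41 ± 0.11 and 0.52 ± 0.11, while Ulk1, a kinase that starts autophagy, fell at -0.43 ± 0.11. Nfkb2, a subunit of NF-kB, rose by 0.95 ± 0.23 from 2.63, 6.97 and 9.68 CPM to 9.37, 10.9 and 14.9 CPM. Ramp2, a partner of the calcitonin receptor in receptors of the amylin family, rose by 0.56 ± 0.15, and the protease Bace2, which can cleave IAPP, fell at -0.35 ± 0.09. Col1a1, a mesenchymal marker, was called there at -1.11 ± 0.24 although its pairs differ in sign: it stood at 28.6, 12.2 and 24.8 CPM in the control and at 36.4, 1.47 and 1.88 CPM in the combined replicates.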
